A study of Homo sapiens with 7 samples.

Results

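Among the 64449 genes annotated on hg19, 8 genes of abundant long non-coding RNAs (lncRNAs) and small nucleolar RNA (snoRNA) hosts were examined: MALAT1, NEAT1, GAS5, SNHG1, SNHG12, SNHG15, ZFAS1 and EPB41L4A-AS1. The genes were chosen by name, and every deposited interval that overlapped the gene or the 10 kb on each side of it was taken. This gave 78 of the 240889 intervals deposited for 6 antibodies. PIXUL-ChIP-seq was done in HCT116, an established human colorectal carcinoma line. For each antibody 200000 cells in 1 well were cross-linked, sonicated for 6 min in 100 µl and made into 1 library, and the labels give no treatment. The antibodies of the lists used here recognise H3K4me1, H3K4me3, H3K9Ac, H3K27me3, H3K36me3 and the DNA-binding protein CTCF. The H3K27Ac library was not analysed here.

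MALAT1 and NEAT1 make long nuclear RNAs. MALAT1 RNA gathers in nuclear speckles, and NEAT1 RNA is the scaffold of paraspeckles, nuclear bodies that hold several RNA-binding proteins. The other 6 genes carry snoRNAs in their introns, which are cut out of the host transcript and guide the modification of ribosomal and other RNAs, while the spliced host RNA often has a short open reading frame or none and can be unstable. In active genes H3K4me3 and H3K9Ac mark the region of the transcription start site (TSS), H3K36me3 is laid down over transcribed gene bodies, H3K4me1 marks enhancers and promoter flanks, and H3K27me3 is the mark of Polycomb repression.

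Each antibody had 1 library, so no value has a replicate error and no test between marks or genes was made. An interval carries a fold enrichment, the linear ratio of its signal to background, and a −log10 q-value, both assigned to the whole interval. The lists hold no read counts, so depth is unknown, and fold enrichment was compared only within a list. "Past the limits" means a fold enrichment over 2 at a q-value under 0.001 in the lists of H3K4me1 and H3K27me3, and over 5 at a q-value under 1e-10 in the other lists. The TSS is the 5′ end of the canonical transcript, and "at the TSS" means within 1000 bp of it. As a check of the cell line, 5 of 7 colon epithelium markers (EPCAM, CDH1, KRT8, KRT18 and CDX2) had H3K4me3 at the TSS, KRT20 and VIL1 had none, and 0 of 5 markers of other cell types had any.

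The 8 genes lie on 5 chromosomes and measure between 3943 and 22767 bp. MALAT1 (ENSG00000251562) is on the plus strand of chromosome 11 from 65265111 to 65275544. NEAT1 (ENSG00000245532) precedes it on the same strand, from 65190245 to 65213011. SNHG1 (ENSG00000255717) is also on chromosome 11, on the minus strand from 62619450 to 62623425, and its 5′ end lies 51 bp from that of SLC3A2, which runs the other way. GAS5 (ENSG00000234741) and SNHG12 (ENSG00000197989) are on the minus strand of chromosome 1, from 173827697 to 173838020 and from 28905050 to 28909644. The 5′ ends of GAS5 and of ZBTB37, on the opposite strand, overlap by 800 bp, and the canonical GAS5 start lies 893 bp inside the gene. SNHG15 (ENSG00000232956) is on the minus strand of chromosome 7 from 45022618 to 45026560. ZFAS1 (ENSG00000177410) is on the plus strand of chromosome 20 from 47894715 to 47916137, and its 5′ end overlaps that of ZNFX1, on the opposite strand, by 248 bp. EPB41L4A-AS1 (ENSG00000224032) is on the plus strand of chromosome 5 from 111496223 to 111500515. ChIP gives no strand, so the signal of a member and of a gene that overlaps it or shares its promoter cannot be told apart.

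In RefSeq (GRCh38.p14), 29 snoRNA genes lie inside the members: 11 in GAS5, 9 in SNHG1, 4 in SNHG12, 3 in ZFAS1 and 1 each in SNHG15 and EPB41L4A-AS1, with 0 in MALAT1 and NEAT1. The hg19 annotation used here places 6 of the snoRNA genes, each in an intron. These are SNORD78 in GAS5, SNORD99 in SNHG12, SNORD12C, SNORD12B and SNORD12 in ZFAS1, and SNORA13 in EPB41L4A-AS1. At an overlap of at least 1 bp, 6 of 6 overlapped a deposited H3K36me3 interval, against 25.2% of the 1458 annotated snoRNA genes, 6 of 6 an H3K9Ac interval (9.74%) and 3 of 6 an H3K4me3 interval (3.64%). SNORA13 lay across the edge of its H3K36me3 interval and was only partly under it. The 6 genes lie in 4 hosts, and those of a host share its intervals.

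RefSeq promoters were found for 6 of the 8 members, with 7 entries in all. Each sequence was matched to hg19, where it occurred once on its chromosome. The starts with a TATA box are shown with the SNHG1 start for comparison, as 60 bases before and 40 bases from the RefSeq start. Capitals mark TATA letters within 50 bases upstream, and the start base together with the pyrimidines that follow it where the run is at least 5 long.
MALAT1, second start, chr11:65266456-65266555, plus strand: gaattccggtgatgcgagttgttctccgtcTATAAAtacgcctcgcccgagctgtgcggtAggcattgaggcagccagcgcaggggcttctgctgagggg
SNHG12, chr1:28908346-28908445, minus strand: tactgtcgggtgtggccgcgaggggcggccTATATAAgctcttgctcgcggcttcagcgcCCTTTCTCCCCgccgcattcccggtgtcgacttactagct
ZFAS1, chr20:47895119-47895218, plus strand: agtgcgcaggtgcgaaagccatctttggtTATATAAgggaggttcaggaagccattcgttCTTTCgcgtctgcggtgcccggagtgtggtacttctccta
SNHG1, chr11:62623318-62623417, minus strand: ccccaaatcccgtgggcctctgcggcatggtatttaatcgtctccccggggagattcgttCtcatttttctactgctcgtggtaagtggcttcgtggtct

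The TATA letters began 30 bases before the start in MALAT1 and SNHG12 and 31 bases before it in ZFAS1. A start with C and a run of pyrimidines is the feature of 5′ terminal oligopyrimidine (TOP) RNAs, which include the messages of ribosomal proteins. SNHG12 had a run of 11 pyrimidines from its first base and ZFAS1 a run of 5, whereas in SNHG1 the run was 3. Over both strands of the 300 bases of each entry, TATAAA was in 2 of 7 entries (MALAT1 and SNHG1), against 11.5% of 35116 RefSeq promoters of the same length. TATATAA, a motif added after these sequences had been seen, was in 2 of 7 (SNHG12 and ZFAS1), against 2.57%. GGGCGG was in 4 of 7 against 45.0%, CCAAT in 1 of 7 against 34.6% and CACGTG in 0 of 7 against 7.26%. A start with C followed by at least 4 pyrimidines was in 2 of 7, against 4.07%. These matches describe letters in the window and no binding was measured at them.

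Both MALAT1 starts of RefSeq lay in marked chromatin. The 300 bases around the first, 98 bp inside the canonical TSS, were 30.7% under the H3K4me3 interval, and those around the second, 1405 bp inside it and with the TATA letters shown above, were 100% under it. The 300 bases of GAS5, SNHG1, SNHG12 and ZFAS1 were also 100% under H3K4me3, and those of EPB41L4A-AS1 9.0%. All 7 were at least 94.0% under H3K9Ac. The RefSeq start of SNHG12 lay 1113 bp inside its canonical TSS and that of GAS5 1056 bp before it, so the start used for a distance matters for these genes.

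At the TSS, all 8 members had intervals of H3K4me3 and H3K9Ac past the limits and 0 had H3K27me3. H3K4me3 was found at 8 of 8 members, against 19.5% of 18702 lncRNA genes and 59.1% of 20163 protein-coding genes. H3K9Ac was also found at 8 of 8, against 20.5% and 58.5%. H3K4me1 was at 6 of 8 (22.9% of lncRNA and 49.1% of protein-coding genes), and GAS5 and SNHG1 had none in the window. H3K36me3 reached the window of SNHG1 and ZFAS1 past the limits, 2 of 8, against 0.118% and 0.298%. CTCF was past the limits at EPB41L4A-AS1 alone, 1 of 8, against 8.35% and 13.6%, so the members' share of CTCF was near the background. For H3K27me3 the background at the TSS was 1.09% and 1.22%, so 0 of 8 members was also near it.

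**Figure D1:**
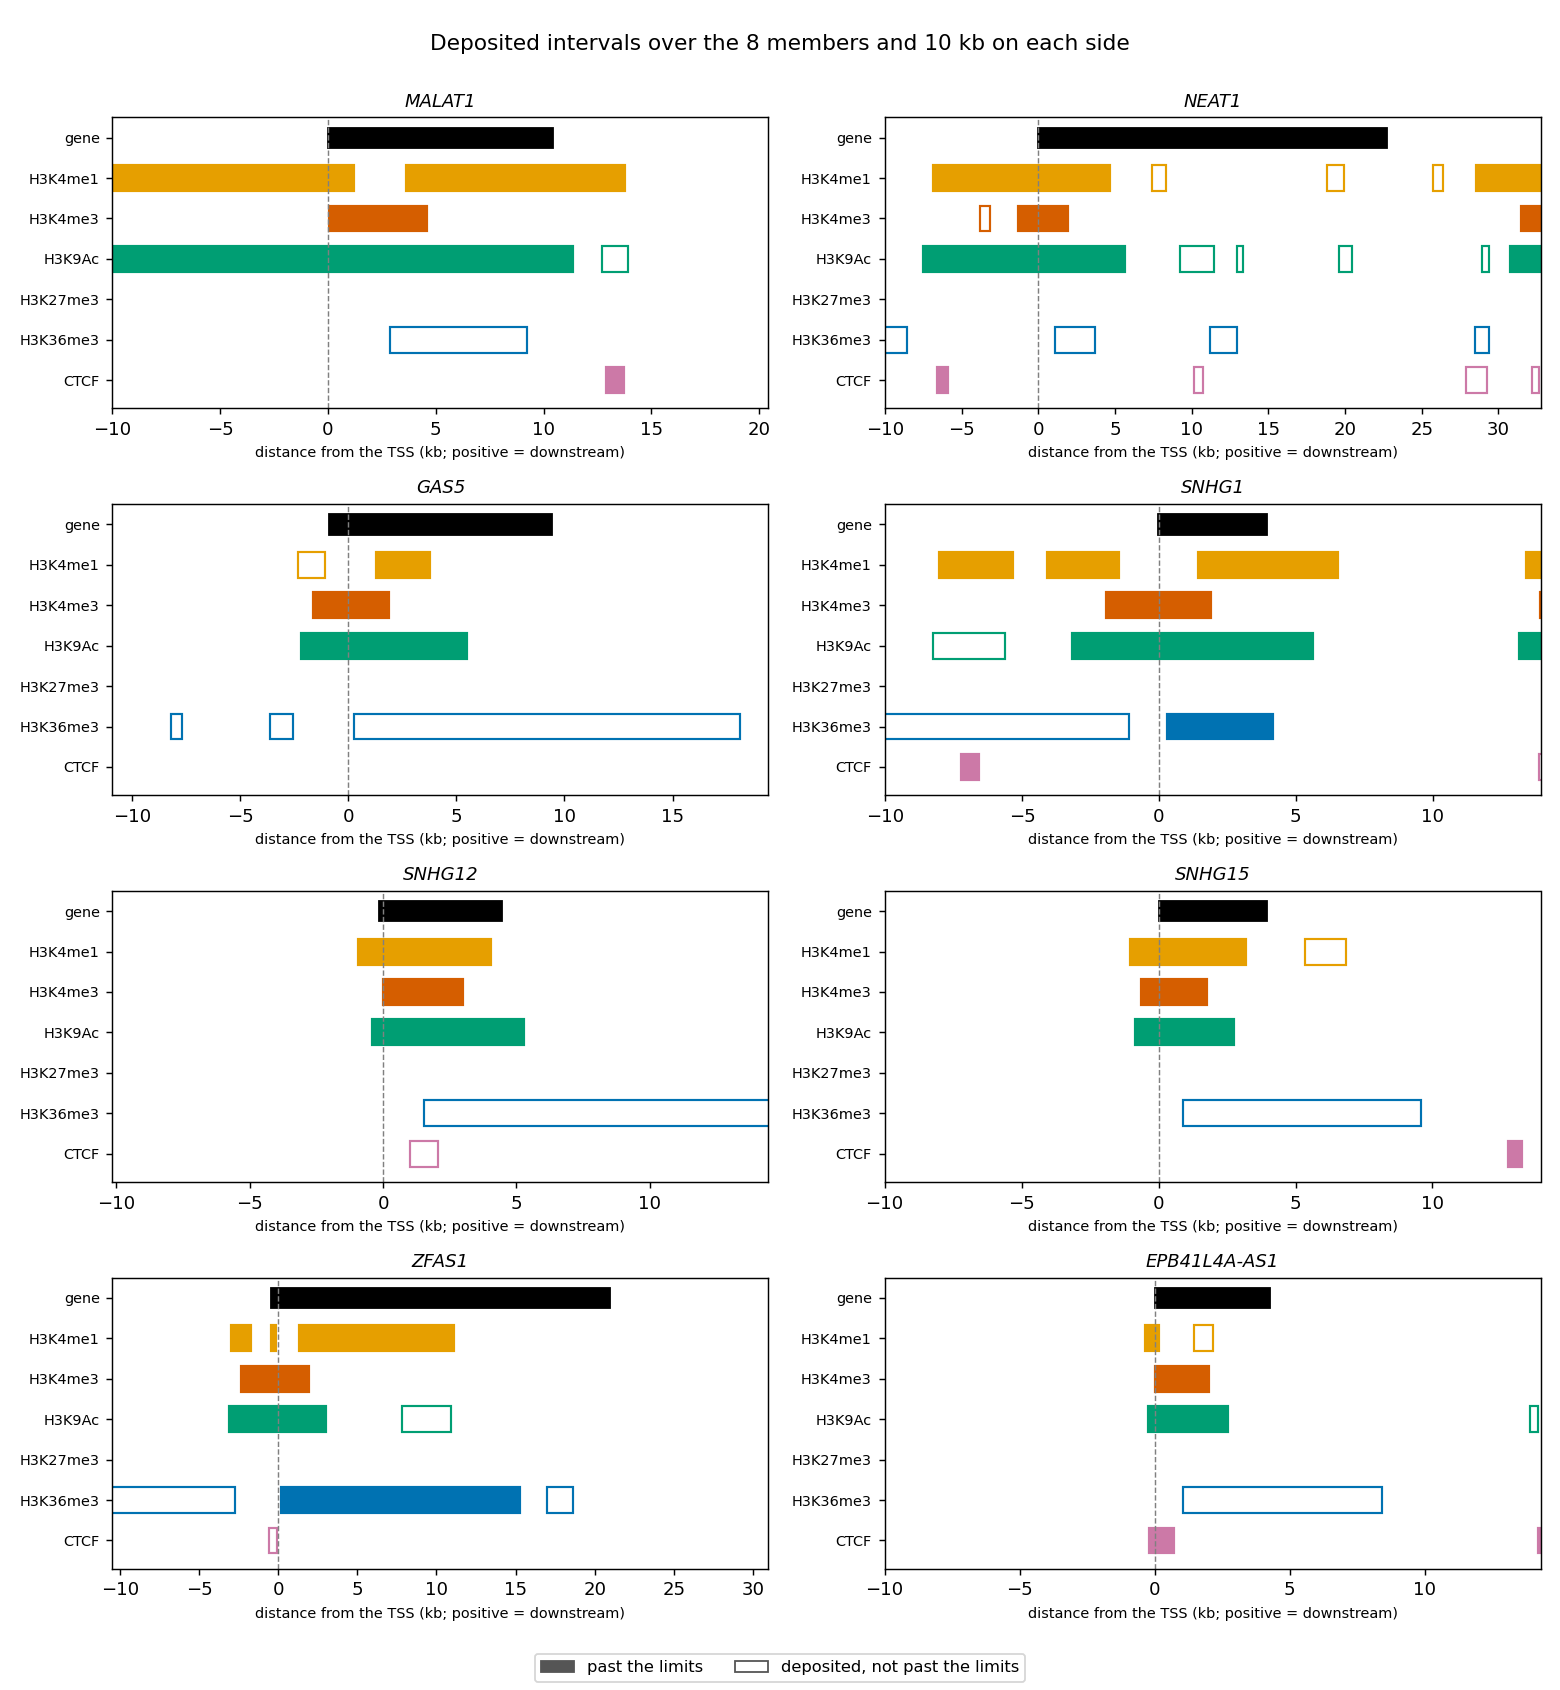
Each panel shows a member (black bar) and the deposited intervals of the 6 lists by distance from the canonical TSS in kb, with the direction of transcription to the right and intervals cut at the edge of the region. Filled boxes are past the limits and open boxes are not. H3K4me3 and H3K9Ac are filled at all 8 starts, H3K36me3 lies inside every gene and is filled in SNHG1 and ZFAS1, and the H3K27me3 row is empty.

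MALAT1, the gene of the nuclear speckle RNA, had the lowest H3K4me3 of the 8. Its fold enrichment was 7.82, at percentile 2.16 of the 15576 genes with H3K4me3 past the limits. NEAT1, the paraspeckle scaffold gene, had 11.7, at percentile 9.84. Both lay under the lower quartile of those genes, 16.9. In the same list the 6 snoRNA hosts ranged from 18.6 to 27.4 (median 24.7), so MALAT1 and NEAT1 did not overlap them.

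Among the hosts, GAS5, whose transcript carries box C/D snoRNAs and is known for its response to growth arrest, had the lowest H3K4me3 fold enrichment, 18.6 (percentile 32.1). SNHG12 had 22.6 (51.3), ZFAS1 24.1 (58.2), EPB41L4A-AS1 25.3 (63.9), SNHG15 26.4 (69.5) and SNHG1 27.4 (73.5). All of them lay between the lower and upper quartiles of all marked genes, 16.9 and 27.8. The hosts were thus at the middle of the H3K4me3 list by fold enrichment and not at its top. By width, the intervals were ranked among all 12749 H3K4me3 intervals past the limits, at a TSS or not. These percentiles therefore have another reference set than those of fold enrichment, which are among genes. The percentile was 98.1 at ZFAS1, 96.8 at SNHG1, 95.3 at GAS5, 90.0 at SNHG12, 75.0 at SNHG15 and 54.1 at EPB41L4A-AS1. MALAT1 and NEAT1, low by fold enrichment, were at percentiles 98.5 and 92.9 by width.

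In H3K4me1, MALAT1 and NEAT1 stood above the hosts instead of below them. MALAT1 had a fold enrichment of 8.46 (percentile 97.3 of 14169 marked genes) and NEAT1 7.98 (percentile 95.9). The hosts with H3K4me1 at the TSS were SNHG15 with 4.21, SNHG12 with 4.37, ZFAS1 with 4.42 and EPB41L4A-AS1 with 4.46, all under the median of 4.74. MALAT1 and NEAT1 again did not overlap the hosts, now on the higher side. No test of this difference between 2 and 6 genes was made, and each value comes from 1 library.

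H3K9Ac did not separate the members in this way. MALAT1 had 8.38 (percentile 10.9 of 15633 marked genes), GAS5 10.5 (25.7) and NEAT1 12.5 (44.9). EPB41L4A-AS1 had 14.4, SNHG15 14.7, SNHG1 15.6, ZFAS1 15.8 and SNHG12 16.2, the last at percentile 77.1. NEAT1 thus lay above GAS5, and the nuclear RNA genes overlapped the hosts.

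**Figure D2:**
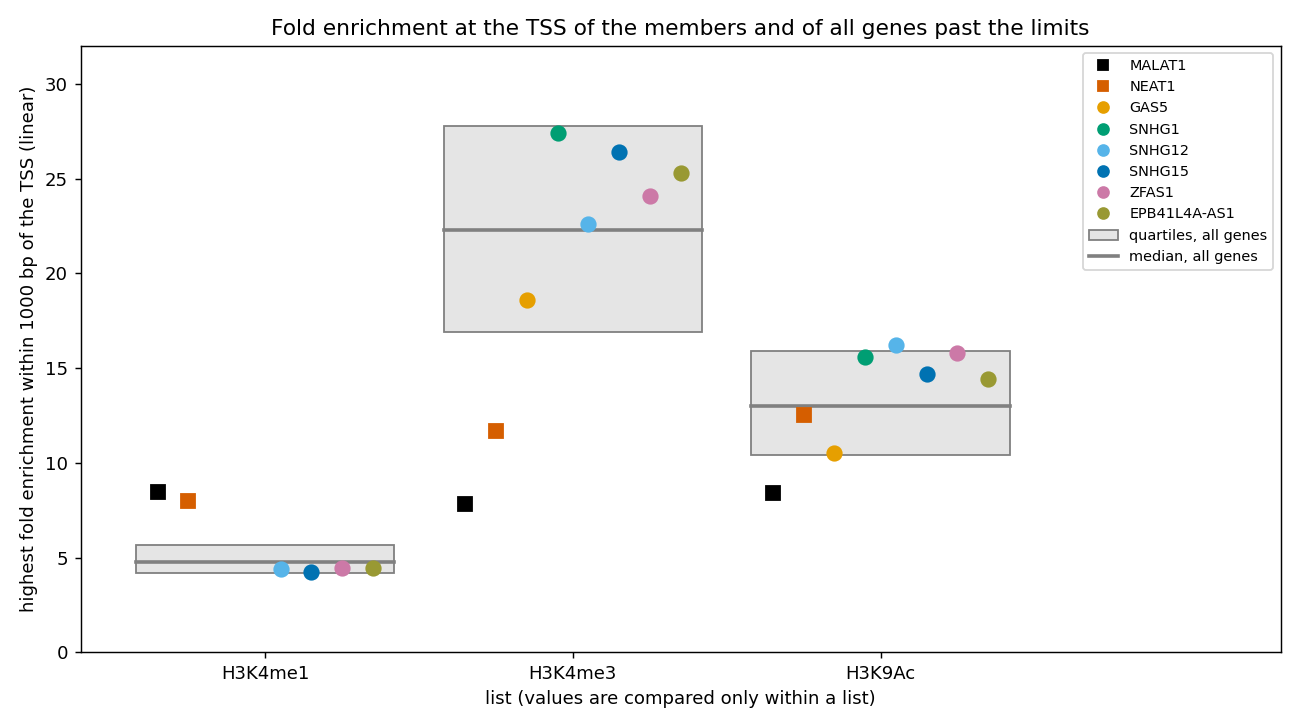
Points are the highest fold enrichment (linear) within 1000 bp of the TSS of each member in the lists of H3K4me1, H3K4me3 and H3K9Ac, with squares for MALAT1 and NEAT1 and circles for the snoRNA hosts. Grey boxes and lines are the quartiles and median of all genes past the limits. MALAT1 and NEAT1 are above the box in H3K4me1 (8.46 and 7.98) and below it in H3K4me3 (7.82 and 11.7), and GAS5 and SNHG1 have no H3K4me1 point.

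The H3K4me3 intervals had different shapes around the start. At MALAT1 the interval began 56 bp downstream of the TSS and ended 4603 bp downstream, wholly inside the gene. At EPB41L4A-AS1, a gene on the strand opposite to EPB41L4A, it began 23 bp downstream and ended at 2012 bp. At SNHG12 it reached 18 bp upstream and 2992 bp downstream. These 3 intervals thus lay almost wholly downstream of the canonical start. At SNHG12 and MALAT1 this depended on the start used. Their intervals extended to both sides of RefSeq starts further inside, at 1113 bp in SNHG12 and 1405 bp in MALAT1.

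At the canonical starts of the other members the H3K4me3 interval extended to both sides. It ran from 1312 bp upstream to 1925 bp downstream at NEAT1 and from 645 bp upstream to 1786 bp downstream at SNHG15. At GAS5 it ran from 1628 bp upstream to 1905 bp downstream, at SNHG1 from 1946 to 1888 bp and at ZFAS1 from 2325 to 1953 bp. The last 3 are the members with a protein-coding neighbour on the opposite strand at the start: ZBTB37 at GAS5, SLC3A2 (the heavy chain of an amino acid transporter) at SNHG1 and ZNFX1 at ZFAS1. The share of the interval inside the gene was 50.1% at SNHG1, 56.5% at ZFAS1 and 79.2% at GAS5, and it was in the same range at NEAT1 (60.2%) and SNHG15 (73.5%), where no start lay within 5000 bp on the opposite strand. MALAT1 had the start of the lncRNA ENSG00000270117 on the opposite strand, 977 bp inside the gene.

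The same 3 starts lay in a gap of the H3K4me1 list, between intervals on both sides. The gap measured 2331 bp at GAS5, 2899 bp at SNHG1 and 1457 bp at ZFAS1, where a short H3K4me1 interval ended 165 bp upstream of the start. Among genes with H3K4me3 at the TSS, the TSS base lay outside every deposited H3K4me1 interval at 37.9% of lncRNA genes and 41.7% of protein-coding genes, so 3 of 8 members was near the background.

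The starts of MALAT1 and NEAT1 stood in long stretches of H3K4me1 and H3K9Ac. The H3K9Ac interval over MALAT1 measured 39806 bp, from 65236689 to 65276494, and covered the whole gene and 28422 bp before it. It was number 13 by width of the 12720 H3K9Ac intervals past the limits, whose median width was 2944 bp. The H3K4me1 interval at its start measured 32476 bp, from 65233821 to 65266296, number 45 of 32292 by width, where the median was 1906 bp. A second H3K4me1 interval, of 10179 bp, covered the downstream part of the gene with a fold enrichment of 4.81.

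The NEAT1 start lay in an H3K9Ac interval of 13130 bp and an H3K4me1 interval of 11520 bp, which reached 7486 and 6857 bp upstream of the TSS. These covered 5668 and 4687 of the 22767 bp of the gene. Inside NEAT1, beyond these intervals, H3K4me1 and H3K9Ac were listed only as short intervals of low fold enrichment, between 2.87 and 3.53, none past the limits. The 52099 bp between NEAT1 and MALAT1 were 73.1% covered by H3K4me1 and 62.9% by H3K9Ac past the limits. H3K4me3 covered 7.22% of this stretch, CTCF 5.21% and H3K27me3 none. The annotation places 7 genes there, lncRNAs and the pseudogene FAUP4. An H3K4me3 interval with a fold enrichment of 11.4 lay over the starts of FAUP4 and of the lncRNA ENSG00000291174, which are on the same strand.

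Inside the genes, H3K36me3 was listed in all 8 members. An H3K36me3 interval in the gene body was deposited for 17.4% of lncRNA genes, 56.3% of protein-coding genes and 54.4% of the 6820 protein-coding genes as long as the members. Only SNHG1 and ZFAS1, 2 of 8, had one past the limits, in a list in which 90 of 40010 intervals were past them. This was so for 0.123% of lncRNA genes, 0.496% of protein-coding genes and 0.748% of protein-coding genes as long as the members. The lncRNA genes with such an interval were 23 in all, among them these 2 members and the snoRNA hosts SNHG4, SNHG6 and SNHG7. At a fold enrichment over 5 with no limit on the q-value, a rule chosen after the values were seen, the list held 463 intervals, and 6 of 8 members had one. This compares with 0.749% of lncRNA genes, 2.89% of protein-coding genes and 4.40% of protein-coding genes as long as the members.

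SNHG1 had the highest H3K36me3 fold enrichment of the members, 7.05 with a −log10 q-value of 11.8, at rank 42 of the 40010 intervals. Its interval ran from 306 bp downstream of the TSS to the end of the gene and slightly past it, and 94.4% of it was inside SNHG1. ZFAS1 followed with 6.42 (−log10 q-value 10.46, rank 81), in an interval that lay wholly inside the gene as annotated. ZFAS1 was the member just inside the limits.

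The members outside the limits still stood high in this list, with 1 exception. SNHG15 had 5.80 (rank 174), EPB41L4A-AS1 5.50 (rank 266), MALAT1 5.34 (rank 324) and GAS5 5.08 (rank 427). MALAT1 was the nearest to the limit, with a −log10 q-value of 8.34. SNHG12 had 4.11 (rank 1732). NEAT1 had 3.14 (rank 13833), close to the median of the whole list, 2.97, and was the lowest of the 8.

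The share of the gene under H3K36me3 followed a similar order at its ends. It was 91.5% in SNHG1, 88.8% in GAS5, 77.8% in ZFAS1, 77.4% in SNHG15, 75.8% in EPB41L4A-AS1, 63.6% in SNHG12, 61.1% in MALAT1 and 19.1% in NEAT1. NEAT1 was thus lowest in both measures, with a short interval that ended 3730 bp from its TSS and another from 11215 to 12942 bp. MALAT1, which also makes an RNA that is mostly kept in the nucleus and whose canonical transcript here has 1 exon, as NEAT1's does, had most of its length covered.

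At SNHG12, SNHG15 and EPB41L4A-AS1 the H3K36me3 interval continued into a protein-coding gene. At SNHG12 10.9% of its 26868 bp lay inside the member, and it also overlapped TRNAU1AP. At SNHG15 35.1% lay inside the member and MYO1G was overlapped. At EPB41L4A-AS1 44% lay inside the member, which overlaps EPB41L4A. At GAS5 51.4% of the interval lay inside the member. The values of SNHG12, SNHG15 and EPB41L4A-AS1 are therefore those of an interval shared with a neighbour, whereas at MALAT1, NEAT1 and SNHG1 no protein-coding gene lay under the interval.

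**Figure D3:**
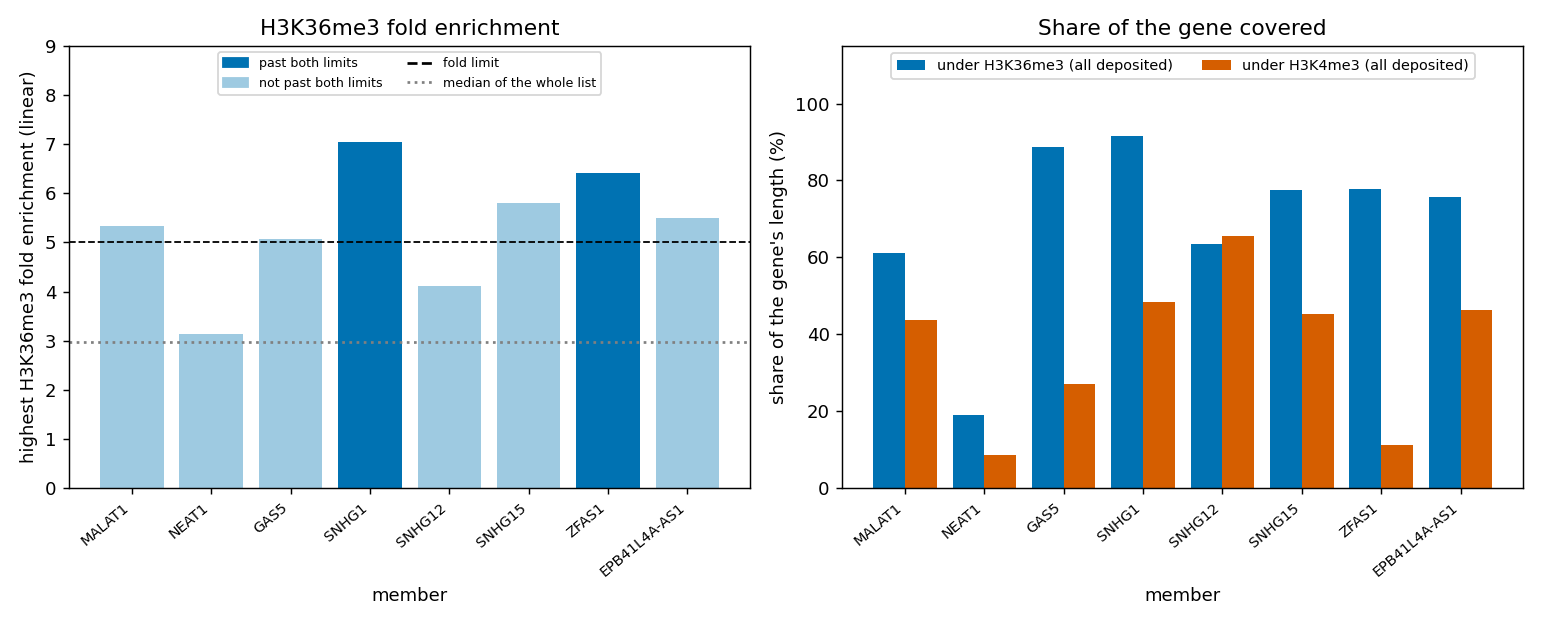
The left panel shows bars of the highest H3K36me3 fold enrichment in each gene (linear), dark where past both limits, with the fold limit of 5 and the list's median of 2.97 as lines. The right panel shows the share of the gene's length in percent under H3K36me3 and under H3K4me3 in the deposited lists. SNHG1 (7.05) and ZFAS1 (6.42) are dark, and NEAT1 has the lowest bars for H3K36me3 in both panels (3.14 and 19.1%).

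In all 8 members the H3K36me3 interval overlapped the H3K4me3 interval of the TSS inside the gene. The overlap measured 1745 bp in MALAT1 and in ZFAS1, 1647 bp in GAS5, 1583 bp in SNHG1, 1468 bp in SNHG12, 975 bp in EPB41L4A-AS1, 897 bp in SNHG15 and 818 bp in NEAT1. Among genes with H3K4me3 at the TSS such an overlap was found for 5.15% of lncRNA genes, 14.5% of protein-coding genes and 21.3% of protein-coding genes as long as the members. This comparison was added after the data had been seen. A library holds many cells and both alleles, so the lists do not show whether both marks were on the same chromatin fibre.

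The 21 other snoRNA host lncRNAs of a list set by name resembled the members in part. Of these, 18 had H3K4me3 at the TSS (fold enrichment 16.6 to 38.6, median 24.8), with the highest values at SNHG17 (38.6), SNHG7 (36.8) and SNHG10 (31.8), and without it at SNHG14, SNHG18 and SNHG20. An H3K36me3 interval was listed in 17 of 21, with a fold enrichment over 5 in 8 and past the limits in 3, SNHG4, SNHG6 and SNHG7. H3K36me3 overlapped the H3K4me3 interval in 12 of 18. SNHG9, SNHG19 and SNHG25, each under 1000 bp long, had H3K4me3 and no H3K36me3.

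Protein-coding genes that host snoRNAs, such as those of nucleolin (NCL), the chaperone HSPA8, the elongation factor EEF2 and ribosomal proteins, were marked throughout. All 22 had H3K4me3 at the TSS, with NOP56 (35.0), EIF4A1 (34.7) and NCL (33.8) highest. All 22 had H3K36me3 in the gene, at a fold enrichment over 5 in 19 and past the limits in 8, and all 22 had the overlap of H3K36me3 with H3K4me3. Among these 8, NCL had 7.15, HSPA8 7.82 and EEF2 7.91, beside 7.05 at SNHG1.

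The proteins that work with these RNAs were examined as genes as well. The 8 genes of the snoRNP core, which bind snoRNAs and carry out the modification, all had H3K4me3 (18.2 to 35.0, highest at NOP56, SNU13 and NHP2). All 8 had H3K36me3, at a fold enrichment over 5 only in NOP56 with 5.52, and it overlapped H3K4me3 in 5 of 8. NOP56 is also in the list of protein-coding snoRNA hosts above, and NOP58 and DKC1 hold snoRNA genes too. The 6 genes of paraspeckle proteins all had H3K4me3 (14.7 to 32.4, highest at HNRNPK and PSPC1), above the 11.7 of NEAT1. So did most genes with H3K4me3 past the limits, since NEAT1 was at percentile 9.84 of them. Of the 6 paraspeckle protein genes, SFPQ (6.58) and HNRNPK (6.73) had H3K36me3 past the limits, against 3.14 in NEAT1. The overlap of H3K36me3 with H3K4me3 was found in 6 of 6.

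Of 14 other well-known lncRNA genes, 12 had H3K4me3 at the TSS, from 9.37 at CRNDE to 37.6 at MIR17HG, followed by NORAD (30.1) and OIP5-AS1 (29.7). MEG3 and HOTAIR had none past the limits. H3K36me3 had a fold enrichment over 5 in 3 of 14 and was past the limits in 0, and it overlapped H3K4me3 in 3 of 12. The members chosen here were 6 of 8 at a fold enrichment over 5, 2 of 8 past the limits and 8 of 8 for the overlap. The rule of over 5 and the overlap were both chosen after the data had been seen. The lists differ in gene length and in overlap with other genes, and the part of these in the counts was not tested.

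**Figure D4:**
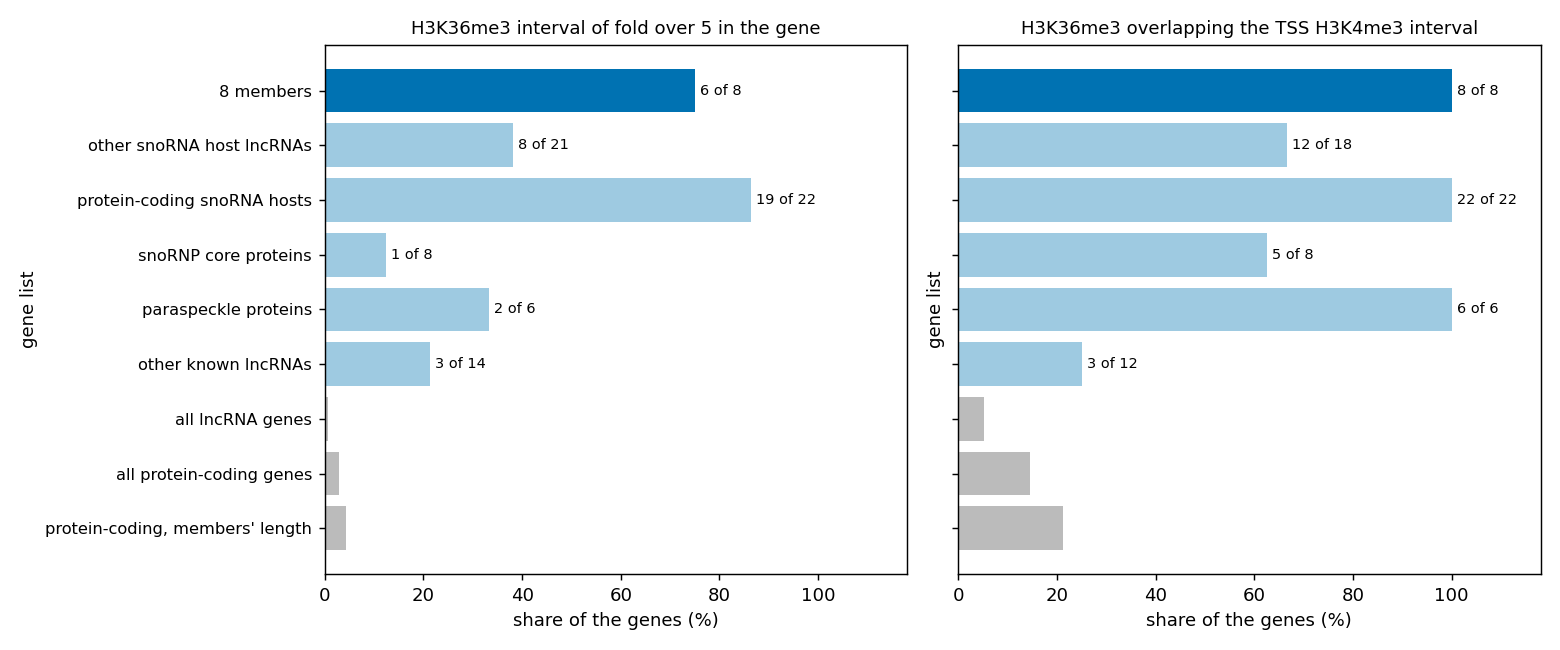
Bars give the share of genes in percent with an H3K36me3 interval of fold enrichment over 5 in the gene (left) and, among genes with H3K4me3 at the TSS, with H3K36me3 overlapping that interval inside the gene (right). Both measures were chosen after the data had been seen. The dark bar is the 8 members, light bars are other lists and grey bars are all annotated genes. The members (6 of 8 and 8 of 8) and the protein-coding snoRNA hosts (19 of 22 and 22 of 22) have the longest bars on the left, and all genes stay under 5% on the left and under 22% on the right.

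The H3K27me3 list had 0 intervals in the regions of the members. Over the gene and 10 kb around it, 31.0% of lncRNA genes and 30.0% of protein-coding genes had any deposited interval, against 0 of 8. Only 1552 of the 55270 deposited H3K27me3 intervals were past the limits. The share of genes with one of these in the region was not counted. The nearest deposited interval was 10287 bp from ZFAS1, just outside its region, at 2.67-fold enrichment (−log10 q-value 1.14), and the next 17767 bp from EPB41L4A-AS1. The nearest H3K27me3 interval past the limits was between 211368 bp (SNHG1) and 1613235 bp (SNHG12) away. These distances were not measured for other genes, so they do not show whether the members lay unusually far from this mark.

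CTCF had 12 intervals in the member regions, of which 6 were past the limits. The share of all genes with CTCF in a region of this kind was not counted, so these counts have no background beside them. The strongest lay 6240 bp upstream of the NEAT1 start, from 65183668 to 65184390, at 20.1-fold enrichment (−log10 q-value 54.5.) It held the only exact match to the CTCF core consensus among the members, printed with its flanks and the core in capitals.
NEAT1 upstream, chr11:65183987-65184016, plus strand: cggctgcggCCAGCAGGGGGCagctgagct

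The CTCF interval at EPB41L4A-AS1, from 111496003 to 111496949, contained the TSS, with a fold enrichment of 14.3, and had no core within 1 mismatch. A second one lay 14704 bp downstream with a fold enrichment of 7.63. The other regions had CTCF at SNHG1 (10.3, centred 6902 bp upstream), MALAT1 (8.74, 13315 bp downstream) and SNHG15 (6.87, 13012 bp downstream). The SNHG15 interval was just past the limits, with a −log10 q-value of 10.03. At the ZFAS1 start an interval of 4.09 was not past them, and GAS5 had no CTCF interval in its region. An exact core was in 1 of 6 intervals past the limits, against 22.4% of all 24536, and a core with up to 1 mismatch in 4 of 6, against 65.9%, so both shares were near those of the whole list.

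The genes nearest to each member by the 6 fold enrichments at the TSS, on a log2(value + 1) scale, were looked for among coding and lncRNA genes over 100 kb away. For SNHG15 they were RPS27 and RPS6, and for ZFAS1 RPSA and the lncRNA ENSG00000267523. RPS27 had 26.4 in H3K4me3 and 5.92 in H3K36me3, beside 26.4 and 5.80 at SNHG15. For SNHG1 they were CKS2 and NKIRAS1, for GAS5 MTAP and the lncRNA ENSG00000264545, which share their values, and for SNHG12 BAG2 and ZNF451-AS1, which also share theirs. EPB41L4A-AS1 was nearest to UBE2Q2P1 and UTP23, both with CTCF at the start (14.8 and 14.7, beside 14.3).

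MALAT1 was nearest to CTSH and LINC01124, and NEAT1 to ZNF414 and SLC22A18. These 4 had H3K4me1 between 7.72 and 9.03 and H3K4me3 between 8.02 and 13.4. Within the 8 members, MALAT1 and NEAT1 were the nearest to each other, at a distance of 0.744, and GAS5 and SNHG1 to each other, at 0.858. SNHG12, a snoRNA host, was nearest to NEAT1, at 1.22, and SNHG15 and ZFAS1 were nearest to each other, at 2.36. The distance rests on 6 values from 1 library each.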

How the data were processed

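ChIP-seq intervals of HCT116 cells were analysed for 6 of 7 libraries, 1 per antibody and without replicates. Per the study's methods, BWA 0.7.12 and the hg19 genome were used for alignment, and the authors ran MACS2 in its broad mode (cutoff 0.1). The submitters' processing notes also list bcl2fastq 2.20.0.442, SAMtools 0.1.19 and MACS 1.4.2. Each deposited interval has a fold enrichment (a linear ratio), a −log10 p-value, a −log10 q-value and a display score, which was not used. The methods name limits for histone marks only, and CTCF was treated like H3K4me3. Methods and labels differ on paired- or single-end reads.

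The members and lists were chosen with earlier results of these data known. All 8 members are named, with the nearest gene start on the opposite strand within 5000 bp, the 2 most similar genes of each, and in each list the genes without H3K4me3 and the 3 with the highest H3K4me3; other genes were named after their values were seen, and some genes are not reported here. Genes were taken from GENCODE 44 on hg19, intervals counted at an overlap of 1 bp, and the code, in Python 3.11.15 with pyfaidx 0.9.0.4 and matplotlib 3.10.9, was tested on simulated data. Depth is unknown, and a deeper library gives more and wider intervals. The interval names of the H3K27me3 list, 55270 in all, lack the cell line's name that the other lists carry.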

Additional observations from a re-analysis of the deposited data

How the results depend on the processing

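No paired analysis was possible because each antibody has 1 library. Counts were recomputed under other limits, windows and overlaps, 71 values in all, of which 52 stayed within 1.5 times the reported count and 19 did not. Other limits and other region sizes change how many intervals enter, the 50% rule changes what counts as overlap, and the mismatch loosens the motif. H3K4me3, H3K9Ac and H3K27me3 at the TSS were among those that stayed under every alternative run. With all deposited intervals the regions held 18 H3K9Ac, 16 H3K36me3 and 12 CTCF intervals (10, 2 and 6 past the limits), and the TSS had H3K36me3 at 4 members and CTCF at 2. With the strict and loose limits exchanged between the marks, H3K4me1 was at the TSS of 2 members (MALAT1 and NEAT1), H3K36me3 of 4 and CTCF of 2. With the fold limit multiplied by 1.5, H3K36me3 was in 0 regions and at 0 starts. Where at least 50% of the window had to be covered, H3K36me3 and CTCF were at 0 starts. With 50 kb on each side the regions held 36 H3K4me1, 23 H3K4me3, 22 H3K9Ac and 22 CTCF intervals, and the gene bodies alone held 1 CTCF interval. H3K36me3 past the limits was in the body of 2 members, against 8 with any interval and 6 at a fold enrichment over 5, an alternative chosen after seeing the data. With 1 mismatch the CTCF core was at 4 members.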
